A study of Mus musculus with 167 samples.

Results

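Single lymphoid-primed multipotent progenitors (LMPPs) with abundant Dntt were compared with those lacking it, in the marrow of wild-type female C57BL/6J mice aged 4 or 14 months. Both ages were sorted with the same gate, as cells without lineage markers or CD150 that carried c-Kit, Sca-1 and CD34 and were high for Flt3, and were captured on a Fluidigm C1 chip. No treatment was given. Members were chosen by the Dntt value alone: a cell was Dntt-high at 100 TPM (a length-corrected abundance whose total is equal in every cell) or more of Dntt and Dntt-negative under 1 TPM, among columns with at least 1000 genes at 1 TPM or more. This gave 110 cells, 85 of them Dntt-high and 25 Dntt-negative, of 168 columns in all. Another 20 of the 130 columns that passed the limit on detected genes lay between and are called Dntt-intermediate. Dntt values chose the cells, so Dntt is not given as a result.

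Dntt encodes terminal deoxynucleotidyl transferase (TdT), a polymerase that adds nucleotides without a template at the junctions of rearranging immunoglobulin and T cell receptor genes. In the marrow it is switched on early, in progenitors biased towards lymphoid fate, well before a B or T cell receptor is made. LMPPs can still form lymphoid cells and granulocytes or monocytes, and single LMPPs can carry transcripts of both programmes.

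At 4 months 37 of 64 kept cells were Dntt-high (57.8%, exact 95% interval 44.8 to 70.1%), 11 were intermediate and 16 were negative. At 14 months 48 of 66 were Dntt-high (72.7%, interval 60.4 to 83.0%), 9 were intermediate and 9 were negative. Columns of 14 months carry a set number, 4 or 5, which the labels do not explain. Set 4 held 19 Dntt-high and 5 Dntt-negative cells, and set 5 held 29 and 4. The Dntt-high cells had a median Dntt level of 727 TPM at 4 months, against 673 TPM at 14 months, with maxima of 4480 TPM and 4720 TPM. Of the 25 Dntt-negative cells, 16 were at exactly 0. The other 9 had 0.29 to 0.99 TPM, and the lowest intermediate cell had 1.13 TPM, so no gap separates the classes at this limit. At the upper limit the highest intermediate cell had 93.6 TPM against 113.5 TPM in the lowest Dntt-high cell.

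Dntt-high cells had more genes detected. Their median was 4448 genes at 4 months and 3407.5 at 14 months, against 3359 and 2916 in Dntt-negative cells. Mitochondrial transcripts took a median 11.8% and 17.5% of TPM in Dntt-high cells and 13.5% and 18.3% in Dntt-negative cells. Most genes had a higher mean in Dntt-high cells, with a median difference of 0.63 at 4 months and 0.28 at 14 months on the log2(TPM+1) scale over 8940 measured genes. Each difference given below is the mean log2(TPM+1) of Dntt-high cells minus that of Dntt-negative cells at 1 age, less this median, and is called the relative difference. A gene was counted as higher or lower only where its relative difference was at least 1 in the same direction at both ages. Each age is 1 sample and no animals are named, so there is no replicate check and no test, and the error given is the spread over cells and the distance between the ages. Of the genes the gate selects, Flt3 was detected in every Dntt-negative cell and in 37 of 37 and 44 of 48 Dntt-high cells, and Cd34 in 92.4% of Dntt-high and 90.6% of Dntt-negative cells, averaged over the ages. Kit was detected in 65.2% and 52.8% of them. Ly6a (Sca-1) was detected in 44.5% and 29.9%, so the RNA of these last markers was not found in many cells.

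In all, 380 of the 8940 measured genes (4.25%) were higher in Dntt-high cells at both ages and 97 (1.09%) were lower. These shares are the background for the count of each list below. At 4 months alone 1416 genes (15.8%) were higher and 885 (9.9%) lower, and at 14 months alone 1099 (12.3%) were higher and 996 (11.1%) lower. The genes higher at both ages made up 26.8% of those higher at 4 months and 34.6% of those higher at 14 months. Beside these, 12.3% and 15.8% of all measured genes were higher at 14 and 4 months. For the lower genes the same shares were 11.0% and 9.74%. Beside these, 11.1% and 9.9% of all measured genes were lower at 14 and 4 months. Being lower at 1 age thus went with no larger share lower at the other. A further 169 of the 1416 were higher at 4 months and lower at 14 months, near the 11.1% of all measured genes. The other way, 54 of 885 were lower and then higher, beside 12.3%. Of the 380 higher genes 310 were positive in both 14-month sets and 54 were not positive in set 5, and of the 97 lower genes 74 were negative in both. These sets are the 14-month cells by which the genes were called, so this adds no separate support. With the ages pooled, 910 genes (10.2%) were higher and 345 (3.86%) lower.

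**Figure D1:**
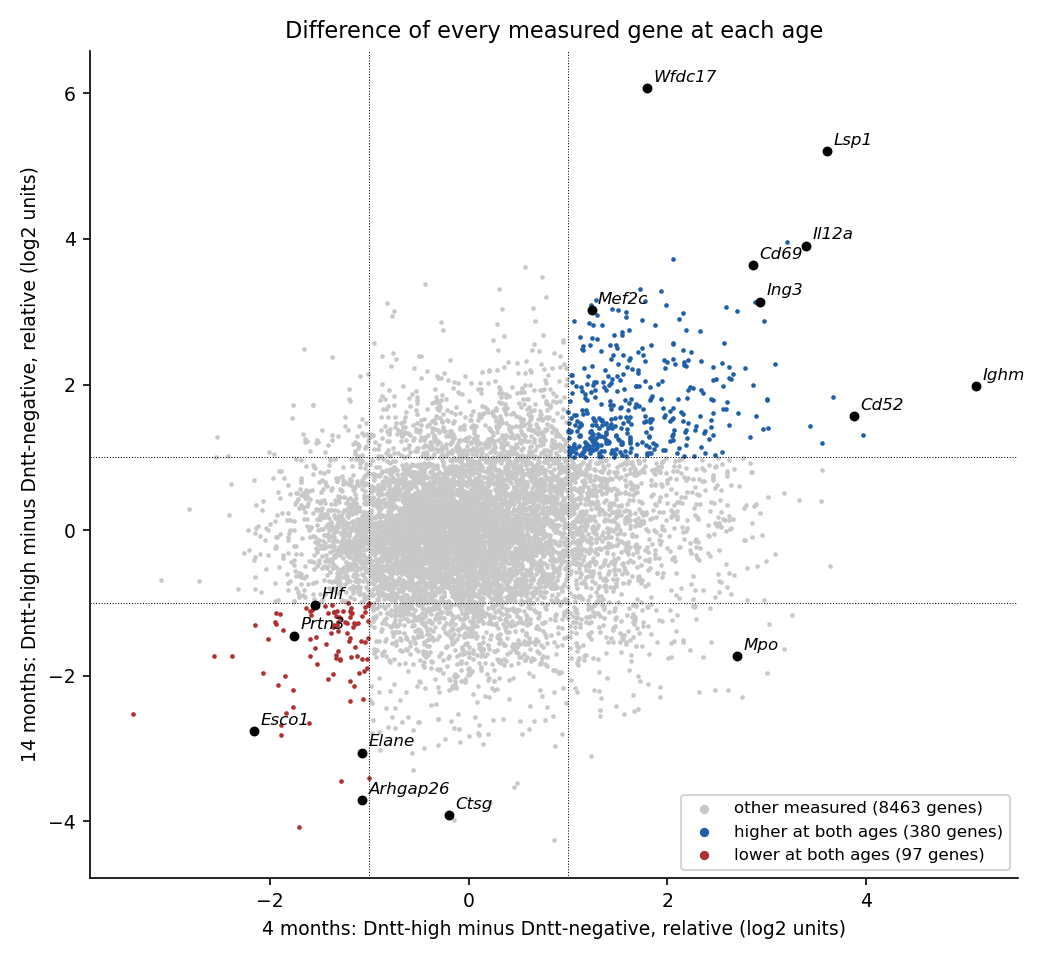
Relative difference between Dntt-high and Dntt-negative cells at 4 months (horizontal axis) and 14 months (vertical axis), in log2 units, with 1 point per measured gene. Dotted lines mark 1 and -1; the 380 blue genes lie beyond 1 at both ages, the 97 red genes beyond -1, and Mpo lies above 0 at 4 months and below 0 at 14 months.

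The 6 genes that stood furthest above the rest in Dntt-high cells were Lsp1, Wfdc17, Il12a, Gpr171, Ighm and Cd69, with relative differences averaged over the ages of 4.41, 3.93, 3.65, 3.59, 3.55 and 3.25. With the ages pooled they were at 4.11, 3.31, 3.50, 3.82, 3.73 and 2.92, in the same cells, so this adds no separate support. Pooling also mixes age with class, as 48 of 85 Dntt-high and 9 of 25 Dntt-negative cells were of 14 months.

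Lsp1, an actin-binding phosphoprotein of leukocytes (chromosome 7, 142460809 to 142494867, mm10), ranged in Dntt-high cells from 0 to 2443 TPM with a median of 369.4 TPM at 4 months, and from 0 to 2030.03 TPM with a median of 369.5 TPM at 14 months. In Dntt-negative cells its median was 3.88 TPM (0 to 2192 TPM) at 4 months and 0.53 TPM (0 to 104 TPM) at 14 months. The classes overlapped at both ages, but at 14 months only 1 of 9 Dntt-negative cells was above 10 TPM, against 35 of 48 Dntt-high cells. The mean log2(TPM+1) of Lsp1 was 7.95 (SD 2.62, n = 37 cells) against 3.70 (SD 4.26, n = 16) at 4 months. It was 6.88 (SD 3.81, n = 48) against 1.40 (SD 2.12, n = 9) at 14 months. The relative differences of Lsp1 were 3.61 and 5.20.

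Ighm, the constant region of the IgM heavy chain (chromosome 12, 113418558 to 113422730), was detected in all 37 Dntt-high cells of 4 months, from 4.98 to 1815 TPM with a median of 505 TPM. In the 16 Dntt-negative cells of that age the Ighm median was 0.82 TPM (0 to 508 TPM). At 14 months the Ighm median was 249 TPM (0 to 2158 TPM) in Dntt-high and 2.79 TPM (0 to 1267 TPM) in Dntt-negative cells. Ighm reached 100 TPM in 33 of 37 Dntt-high cells (89.2%, interval 74.6 to 97.0%) and 4 of 16 Dntt-negative cells (25.0%, interval 7.27 to 52.4%) at 4 months. The counts at 14 months were 32 of 48 (66.7%, interval 51.6 to 79.6%) and 4 of 9 (44.4%, interval 13.7 to 78.8%). The relative difference of Ighm was thus larger at 4 months (5.11) than at 14 months (1.98), where the intervals of the shares overlapped. Whether this gap between the ages exceeds the spread between animals was not tested.

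Il12a encodes the p35 subunit of interleukin-12 (chromosome 3, 68690644 to 68698547). Its median was 184 TPM (0 to 1139 TPM) in Dntt-high and 0 TPM (0 to 773 TPM) in Dntt-negative cells at 4 months. At 14 months the Il12a medians were 107 TPM (0 to 1636 TPM) and 0 TPM (0 to 523 TPM), and 33 of 48 Dntt-high cells but 1 of 9 Dntt-negative cells had the gene. Wfdc17, a small secreted protein with a whey acidic protein domain (chromosome 11, 83703991 to 83706268), was detected in 36 of 37 Dntt-high and 11 of 16 Dntt-negative cells at 4 months. At 14 months Wfdc17 was detected in 39 of 48 Dntt-high cells and 1 of 9 Dntt-negative cells. Its relative difference was 1.80 at 4 months and 6.07 at 14 months, where the Dntt-high median was 356 TPM and the Dntt-negative median 0 TPM.

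Gpr171, a G protein-coupled receptor gene (chromosome 3, 59096448 to 59101821), had medians of 72.8 TPM in Dntt-high and 0 TPM in Dntt-negative cells at 4 months, and of 213 TPM and 0 TPM at 14 months. The highest Dntt-negative cell reached 149.5 TPM and 217 TPM of Gpr171 at the 2 ages, while 18 of 37 and 31 of 48 Dntt-high cells were at 100 TPM or more. Cd69, a lectin-like receptor that holds lymphocytes in tissues (chromosome 6, 129267325 to 129275436), had medians of 571 TPM against 37.4 TPM at 4 months and 124 TPM against 0.38 TPM at 14 months. Cd52, a small glycoprotein anchored in the lymphocyte membrane, followed the same order, with relative differences of 3.88 at 4 months and 1.57 at 14 months. Cd52 separated the classes in set 5 (2.80) but hardly in set 4 (0.25).

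**Figure D2:**
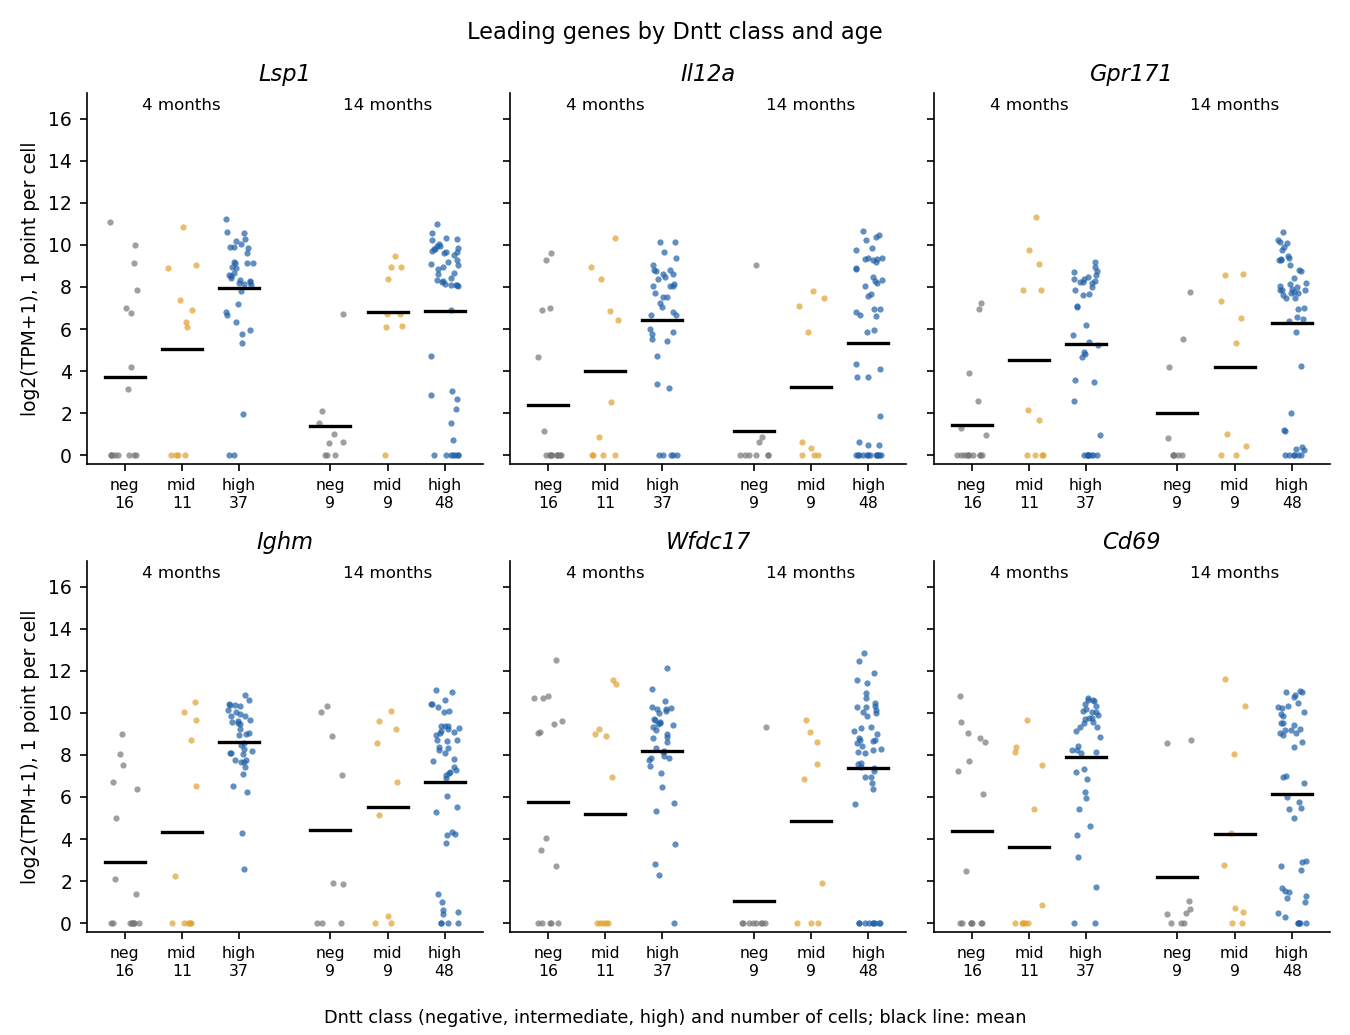
The log2(TPM+1) of 6 leading genes in each cell (points; black lines are means) by Dntt class and age, with the number of cells under each class. Most Dntt-high cells lie above 4 log2 units and many Dntt-negative cells at 0, while every panel has overlapping cells.

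The 300-base windows at the starts of Il12a and Wfdc17, a pair of leading genes with an entry in the RefSeq promoter table, are printed here as sequence context; whether their levels vary together from cell to cell was not tested. They run from 250 bases before to 50 bases after the start on GRCm38.p6, the mm10 assembly, at chr3:68690394-68690693 and chr11:83703806-83704105, both on the plus strand, 5′ to 3′. Capitals mark matches on either strand to CAGGTG or CAGCTG, E-box forms that E proteins read, and to GAGGAA, the core read by PU.1. The Il12a window held 1 CAGGTG and the Wfdc17 window 1 GAGGAA, in reverse as TTCCTC. Of 32851 promoter windows in the table, 20.2% held CAGGTG, 16.3% CAGCTG and 28.3% GAGGAA, so either match is common. Of the 30 leading genes, 22 had a window.
Il12a: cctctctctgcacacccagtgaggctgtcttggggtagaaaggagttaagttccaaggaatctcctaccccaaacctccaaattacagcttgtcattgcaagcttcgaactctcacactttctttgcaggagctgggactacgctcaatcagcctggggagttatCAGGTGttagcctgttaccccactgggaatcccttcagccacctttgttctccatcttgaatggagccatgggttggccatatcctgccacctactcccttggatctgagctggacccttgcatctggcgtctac
Wfdc17: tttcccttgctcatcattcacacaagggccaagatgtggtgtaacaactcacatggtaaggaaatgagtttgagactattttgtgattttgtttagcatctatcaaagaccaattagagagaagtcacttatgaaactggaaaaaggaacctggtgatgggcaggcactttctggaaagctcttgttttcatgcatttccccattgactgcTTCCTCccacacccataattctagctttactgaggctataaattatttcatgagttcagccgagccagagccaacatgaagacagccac

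The other 8 leading genes are known for general roles in chromatin, mitochondria and metabolism. Ing3, a subunit of the NuA4 histone acetyltransferase complex, was detected in 23 of 37 Dntt-high and 2 of 16 Dntt-negative cells at 4 months. At 14 months Ing3 was detected in 25 of 48 Dntt-high and 0 of 9 Dntt-negative cells, which allows a share of up to 33.3%. Sirt3, a deacetylase of mitochondria, had a mean relative difference of 3.01, the mitochondrial ribosomal gene Mrpl21 2.92 and the retinaldehyde reductase gene Dhrs3 2.90. Gstp1 (glutathione transferase) was at 2.86, Hsbp1 (heat shock factor binding protein) at 2.83, Sdhb (iron-sulphur subunit of complex II) at 2.75 and Adh5 (formaldehyde detoxification) at 2.69. All 15 leading genes had a positive relative difference in both 14-month sets, the smallest being 0.14 for Hsbp1 in set 5. They were named from these same cells, so this adds no separate support. Gpr171, Cd52, Mrpl21 and Sirt3 overlap another protein-coding gene on the opposite strand and Gstp1 has a near-identical copy, so reads of their partners may be included.

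These genes were named for their difference between the extreme ranges of Dntt, so only the intermediate cells and the order within the Dntt-high cells add to it. Averaged over the ages, the mean log2(TPM+1) of Lsp1 was 2.55 under 1 TPM of Dntt, 5.93 in the intermediate cells, 6.14 from 100 to under 500 TPM and 8.24 from 500 TPM. For Ighm the same means were 3.67, 4.93, 7.32 and 7.89, and for Cd69 they were 3.31, 3.94, 6.73 and 7.20. Lsp1 therefore already differed in the intermediate cells, while Ighm and Cd69 were closer to the Dntt-negative level there. Il12a went from 1.79 to 3.63 and 5.98 and was no higher in the top range, at 5.85.

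**Figure D3:**
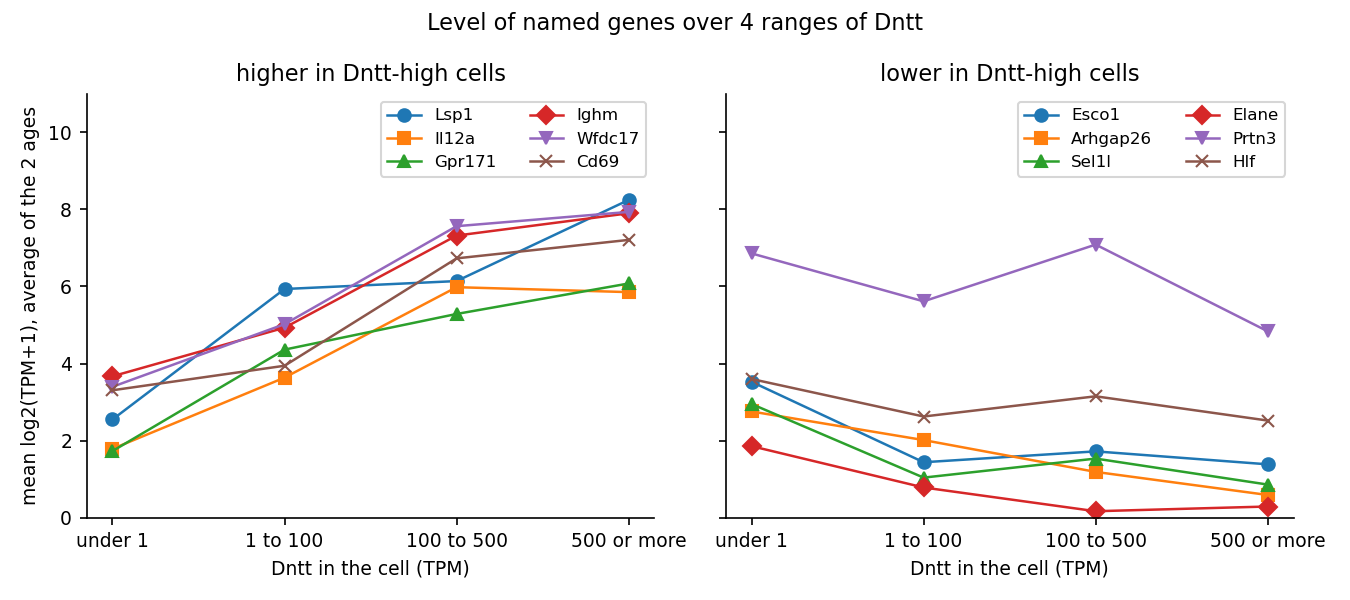
Mean log2(TPM+1), averaged over the 2 ages, of 6 genes higher (left) and 6 lower (right) in Dntt-high cells over 4 ranges of Dntt in TPM. Lsp1 climbs from 2.55 to 8.24, and Elane goes from 1.86 to 0.29, while Prtn3 has no steady order.

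Among early lymphoid receptor and recombination genes, 10 of 17 were measured, 2 (Lsp1 and Ighm) were higher, 20.0% beside 4.25% of all measured genes, and none was lower. The median relative difference of the 10 was 0.66, with 0.91 at 4 months and 0.18 at 14 months, beside -0.02 over all measured genes. Lax1, an adaptor of lymphocyte signalling, had relative differences of 2.23 and -0.27. Flt3 differed little, at 0.52 and -0.06. Il7r, the interleukin-7 receptor that marks the next step of lymphoid commitment, was in too few cells to count as measured. It was detected in 4 of 37 and 13 of 48 Dntt-high cells (10.8% and 27.1%, intervals 3.03 to 25.4% and 15.3 to 41.8%). No Dntt-negative cell had Il7r, 0 of 16 and 0 of 9, which allows shares of up to 18.8% and 33.3%, so the classes could not be told apart at this number of cells. Rag1 or Rag2, the recombinase genes, were detected in 5 of 37 and 6 of 48 Dntt-high cells and in 2 of 16 and 1 of 9 Dntt-negative cells.

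Of 11 measured lymphoid transcription factors of 20, only Mef2c was higher (9.09%, beside 4.25% of all measured genes) and none was lower. The list median was 0.38. Mef2c, a factor needed for lymphoid output of early progenitors, had medians of 112 TPM (0 to 790 TPM) in Dntt-high and 21.7 TPM (0 to 299.5 TPM) in Dntt-negative cells at 4 months. In the 14-month cells the Mef2c medians were 53.1 TPM (0 to 562 TPM) and 0.15 TPM (0 to 67.5 TPM), and its relative differences were 1.24 and 3.02. Bcl11a was at 0.89 and 1.29, Ikzf1, encoding Ikaros, at 0.67 and 0.61, and Satb1 at 1.56 and 0.27, each short of the limit at 1 age or both. The B cell factor Ebf1 was detected in 1.35% of Dntt-high cells, averaged over the ages, and in no Dntt-negative cell. E proteins and their Id inhibitors held no gene that was higher or lower among 9 measured, with a median of -0.34. Tcf4 was at 1.58 and 0.53, Tcf12 at 0.68 and 1.34 and Tcf3, which encodes E2A, at -0.50 and -0.81.

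TdT works with the non-homologous end joining machinery. Of 19 listed genes of this machinery and of TdT partners, 15 were measured. Xrcc6, Dnttip2 and Pcna were higher (20.0%, beside 4.25% of all measured genes), none was lower and the median was 0.06. Xrcc6, encoding the Ku70 end-binding protein, had medians of 37.6 TPM against 0 TPM at 4 months and 23.9 TPM against 0 TPM at 14 months, with relative differences of 1.24 and 3.09. Xrcc5, which encodes its partner Ku80, was at -0.78 and -0.57. Dnttip2, encoding a TdT-interacting protein, was at 1.54 and 1.41 but at 0.34 on average in cells matched on genes detected. Dnttip1 was at 0.60 and -0.08, Prkdc, the DNA-dependent kinase of this pathway, at -0.20 and -0.06, and Xrcc4 of the ligase complex at -0.10 and 0.07.

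Granule genes of the myeloid programme had values that differed in sign between the ages, a difference that was not tested. Medians of several other lists did so too, such as those of sort gate genes (0.55 and -0.46) and homing and adhesion receptors (-0.27 and 0.69). Of 12 measured azurophil granule genes of 13, none was higher and 2, Prtn3 and Elane, were lower (16.7%, beside 1.09% of all measured genes). The list median was 0.63 at 4 months and -1.18 at 14 months, where it was -0.0015 in set 4 and -2.47 in set 5. Mpo, the myeloperoxidase of these granules (relative differences 2.71 and -1.74), was higher in Dntt-high cells at 4 months, with a median of 118 TPM (0 to 1243 TPM) against 0 TPM (0 to 2258 TPM). At 14 months the Mpo medians were 15.0 TPM (0 to 1420.41 TPM) in Dntt-high and 3.37 TPM (0 to 13569 TPM) in Dntt-negative cells, so the mean but not the median was higher in the latter. The 14-month value of Mpo was -4.99 in set 5, with 4 Dntt-negative cells, and 0.46 in set 4. Mpo reached 100 TPM in 19 of 37 Dntt-high and 3 of 16 Dntt-negative cells at 4 months (51.4% and 18.8%). The counts at 14 months were 14 of 48 and 4 of 9 (29.2% and 44.4%), with intervals of 17.0 to 44.1% and 13.7 to 78.8% that overlap.

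Prtn3, the serine protease proteinase 3 (chromosome 10, 79874476 to 79883174), was found in most cells of both classes. Its medians were 152 TPM (0 to 951 TPM) in Dntt-high and 337 TPM (0 to 2081 TPM) in Dntt-negative cells at 4 months. The Prtn3 medians at 14 months were 146 TPM (0 to 2188 TPM) and 529 TPM (0 to 2603 TPM), and its relative differences were -1.76 and -1.45. The 14-month value of Prtn3 came from set 5 (-5.76), while set 4 went the other way (2.87). Elane, neutrophil elastase (chromosome 10, 79886247 to 79888215), lies 3073 bases downstream of Prtn3. At 4 months Elane was sparse, in 1 of 37 Dntt-high and 2 of 16 Dntt-negative cells, so its value there rests on 3 cells and the median shift (mean log2(TPM+1) 0.07 against 0.51). At 14 months it was detected in 6 of 48 Dntt-high cells, up to 84.1 TPM, and in 3 of 9 Dntt-negative cells, up to 13816 TPM. Ctsg, cathepsin G, had relative differences of -0.20 at 4 months and -3.91 at 14 months, where it reached 3906 TPM in Dntt-negative and 1556 TPM in Dntt-high cells. Elane or Ctsg was at 100 TPM or more in 4 of 9 Dntt-negative cells of 14 months (44.4%, interval 13.7 to 78.8%) and in 5 of 48 Dntt-high cells (10.4%, interval 3.47 to 22.7%).

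**Figure D4:**
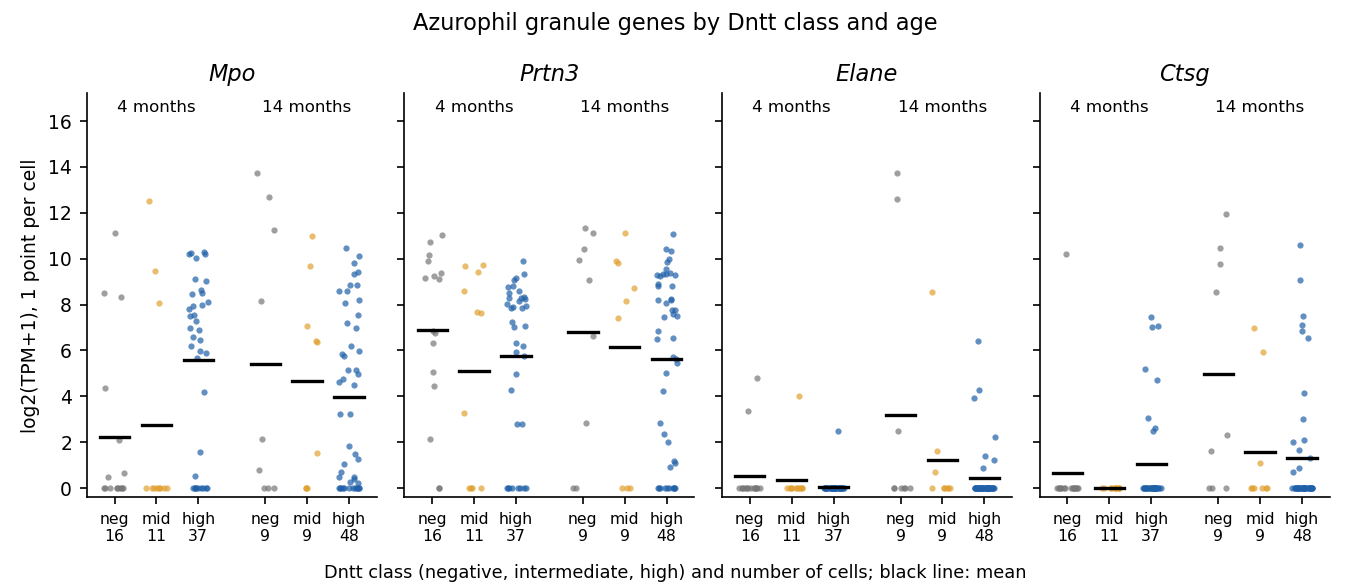
The log2(TPM+1) of 4 azurophil granule genes in each cell (points; black lines are means) by Dntt class and age. Mpo is spread over most Dntt-high cells at 4 months, and at 14 months a few Dntt-negative cells hold the highest Mpo, Elane and Ctsg values.

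The windows at the starts of Prtn3 and Elane, the neighbouring genes that were both lower, are shown with the same motifs in capitals (GRCm38.p6, plus strand, chr10:79879417-79879716 and chr10:79886062-79886361). Each held 1 GAGGAA and neither E-box form. The printed Prtn3 window is the one in the table and starts downstream of the gene's annotated first base.
Prtn3: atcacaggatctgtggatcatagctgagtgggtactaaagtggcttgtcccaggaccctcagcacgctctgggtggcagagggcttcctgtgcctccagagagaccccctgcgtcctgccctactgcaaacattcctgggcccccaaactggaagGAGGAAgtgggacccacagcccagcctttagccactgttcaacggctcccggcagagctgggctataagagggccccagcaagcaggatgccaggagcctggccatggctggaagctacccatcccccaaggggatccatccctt
Elane: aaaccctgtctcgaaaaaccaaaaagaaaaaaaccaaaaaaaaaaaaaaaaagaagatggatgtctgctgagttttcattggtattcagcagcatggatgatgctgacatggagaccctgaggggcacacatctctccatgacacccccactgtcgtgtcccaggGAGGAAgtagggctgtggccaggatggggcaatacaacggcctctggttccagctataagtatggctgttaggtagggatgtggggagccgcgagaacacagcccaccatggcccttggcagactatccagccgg

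Myeloid transcription factors and receptors gave no higher or lower gene among 13 measured of 18, with a median of -0.12. Irf8, a factor of monocyte and dendritic cell development, was detected in 24 of 37 Dntt-high and 2 of 16 Dntt-negative cells at 4 months and in 15 of 48 and 1 of 9 at 14 months, with relative differences of 1.85 and 0.50. Spi1, which encodes PU.1, was at -1.03 and -0.78 and Cebpa at -0.92 and 0.55. Late monocyte and neutrophil genes were mostly absent, with 2 of 16 measured. Of 5 monocyte and neutrophil markers, Ly6g and Ngp were at 0 in every cell of both classes. Their summed level ranged from 0 to 110 TPM in Dntt-high and 0 to 524 TPM in Dntt-negative cells at 4 months. At 14 months it ranged from 0 to 1457 TPM in Dntt-negative cells, and in Dntt-high cells up to 364930 TPM, from Camp in 1 cell. Their part in the granule gene values was not tested.

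Stem cell genes were mixed. Of 13 measured of 23, Hoxa9 was higher (7.69%, beside 4.25% of all measured genes), Hlf was lower (7.69%, beside 1.09%) and the median was 0.17. Hlf, a transcription factor of stem cells, had medians of 14.7 TPM (0 to 273 TPM) in Dntt-high and 24.5 TPM (0 to 496 TPM) in Dntt-negative cells at 4 months. The Hlf medians at 14 months were 0 TPM (0 to 225 TPM) and 3.21 TPM (0 to 358 TPM), and its relative differences were -1.54 and -1.03, the latter at the edge of the limit. Against the Dntt-negative cells at exactly 0 alone, Hlf averaged 0.13. Hoxa9 was detected in 25 of 37 and 22 of 48 Dntt-high cells and in 3 of 16 and 2 of 9 Dntt-negative cells. Hlf or Mecom at 10 TPM or more was found in 23 of 37 Dntt-high and 11 of 16 Dntt-negative cells at 4 months and in 18 of 48 and 3 of 9 at 14 months, shares whose intervals overlapped at both ages. Megakaryocyte and erythroid genes held no higher or lower member among 7 measured, and Gata1 was at 0 in all cells of both classes.

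Some cells held transcripts of stem cell and granule genes together. Dntt-high cells had more genes detected (median 4448 against 3359 at 4 months), and no doublet caller was run. The part of either in the counts that follow was not tested. At 4 months 12 of 37 Dntt-high cells (32.4%, interval 18.0 to 49.8%) had Hlf or Mecom at 10 TPM together with Mpo, Elane or Ctsg at 100 TPM, against 2 of 16 Dntt-negative cells (12.5%, interval 1.55 to 38.3%). The 14-month counts were 4 of 48 (8.33%, interval 2.32 to 20.0%) and 0 of 9. Neither was present in 6 of 37 and 18 of 48 Dntt-high cells and in 4 of 16 and 2 of 9 Dntt-negative cells. Both classes were mixed by these genes. Of the 16 Dntt-negative cells at 4 months, 9 had Hlf or Mecom without the granule genes and 1 the reverse. Of the 9 at 14 months, 3 and 4 did. Among Dntt-high cells the same counts were 11 and 8 of 37 at 4 months and 14 and 12 of 48 at 14 months.

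Traces of mature lymphocyte genes were also looked for, since Ighm and Cd52 are shared with B cells. Cd3e and Cd3g of T cells and Ncr1 of NK cells were at 0 in every cell of both classes. The summed T cell markers, through Cd3d, reached 1 TPM in 2 of 48 Dntt-high cells of 14 months, up to 7.48 TPM, and Klrd1 of NK cells was found in Dntt-high cells of both ages. At least one of Ms4a1, Cd3d, Cd3e, Cd3g, Klrd1 and Ncr1 reached 10 TPM in 2 of 37 and 4 of 48 Dntt-high cells and in 0 of 16 and 0 of 9 Dntt-negative cells, and the part of these cells in the lymphoid gene values was not tested. Cd79b and Nkg7 were found in both classes. Cd79b, a signalling chain of the B cell receptor, was detected in 20 of 37 Dntt-high and 2 of 16 Dntt-negative cells at 4 months, and in 12 of 48 and 1 of 9 at 14 months, with relative differences of 1.45 and 0.24. The summed level of 4 B cell markers ranged from 0 to 1080 TPM in Dntt-high and 0 to 1378 TPM in Dntt-negative cells at 4 months, and from 0 to 971 TPM and 0 to 487 TPM at 14 months. Lck, a kinase of T cells, was higher, at 1.01 and 1.14, in 21 of 37 and 15 of 48 Dntt-high cells and in 5 of 16 and 2 of 9 Dntt-negative cells, with 2.17 in set 4 and 0.29 in set 5. Nkg7, a granule membrane protein of cytotoxic cells, leaned the other way, at -0.18 and -1.48, and was found in 8 of 9 Dntt-negative cells of 14 months.

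Of the homing and adhesion receptors, 15 of 18 were measured. Cd48 and Cd93 were higher (13.3%, beside 4.25% of all measured genes), none was lower and the median was 0.21. Cd48, a ligand of the SLAM family that marks progenitors past the stem cell stage, had medians of 154 TPM against 0 TPM at 4 months and 54.5 TPM against 1.61 TPM at 14 months. Cd48 was at 3.16 in set 4 and -0.21 in set 5. Cd93, a lectin-like receptor of early progenitors and B cell precursors, was in 37 of 37 and 41 of 48 Dntt-high cells and in 11 of 16 and 4 of 9 Dntt-negative cells. The relative differences of Cd93 were 1.29 and 2.95. In the Notch pathway, 1 of 11 measured genes was higher (9.09%, beside 4.25%), Adam10, a protease that cleaves Notch receptors, at 1.25 and 1.53, but at 3.08 in set 4 and -0.72 in set 5. Notch1 was at 1.04 and 0.09.

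Cell cycle genes were divided. Cdk4, the kinase of G1 progression, had medians of 576 TPM (0 to 2740 TPM) in Dntt-high against 129 TPM (0 to 1880 TPM) in Dntt-negative cells at 4 months and 307 TPM against 3.25 TPM at 14 months, with a relative difference of 2.57 at each age. Its partner Ccnd2, cyclin D2, was at 1.83 and 1.78, and these were the 2 higher genes among 15 measured G1 genes (13.3%, beside 4.25%). Within the 14-month table Cdk4 reached 4.11 among set 4 cells but 0.43 among set 5 cells, and Ccnd2 reached 4.61 and -1.67. Of 44 S phase genes 5 were higher (11.4%, beside 4.25% of all measured genes), Rfc2, Tipin, Uhrf1, Fen1 and Pcna, none was lower, and the median was 0.44. Of these, Tipin (-1.54), Rfc2 (-0.52) and Uhrf1 (-0.11) were negative in set 5, and Uhrf1 was at 0.09 in matched cells. Of 51 measured G2 and mitosis genes 1 was higher (1.96%, beside 4.25% of all measured genes), Cks1b (2.06 and 2.35). Their median of 0.48 turned to -0.45 in 50 cells matched on genes detected, where that of the S phase genes was 0.03. At 4 months 26 of 37 Dntt-high and 5 of 16 Dntt-negative cells had at least 25% of the G2 and mitosis genes detected, while at 14 months 29 of 48 and 6 of 9 did. Ezh2 and Suz12, subunits of the Polycomb repressive complex 2, were the 2 higher genes of 18 chromatin regulators (11.1%, beside 4.25%), at averages of 2.57 and 1.30. Eed, the remaining core subunit, was at -0.49 and 0.42.

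Nuclear genes of the respiratory chain had the largest share of higher members among the lists with at least 20 measured genes. Some smaller lists had larger shares, up to 33.3% of 3 mature lymphocyte genes. Of 76 measured respiratory chain genes, 14 were higher (18.4%, beside 4.25% of all measured genes) and none was lower. The list median was 1.42 at 4 months and 0.48 at 14 months, but 0.97 in set 4 and -0.32 in set 5, and 0.46 in cells matched on genes detected. Sdhb had medians of 201 TPM (0 to 838 TPM) against 0 TPM (0 to 464 TPM) at 4 months and 155 TPM (0 to 1648 TPM) against 0 TPM (0 to 996 TPM) at 14 months. Cox6b1, a subunit of complex IV, was at 1.99 and 3.10, and Atp5c1 of the ATP synthase at 2.19 and 2.75. The transcripts encoded in the mitochondria themselves had no higher or lower gene among 15 and a median of -0.44. Their median was -0.75 at 4 months, 0.0022 at 14 months and -0.05 in cells matched on genes detected. Cytosolic ribosomal protein genes had 2 higher members of 79, Rpl14 and Rps6 (2.53%, beside 4.25% of all measured genes). Of 17 glycolysis genes 1, Pgk1, was higher (5.88%).

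**Figure D5:**
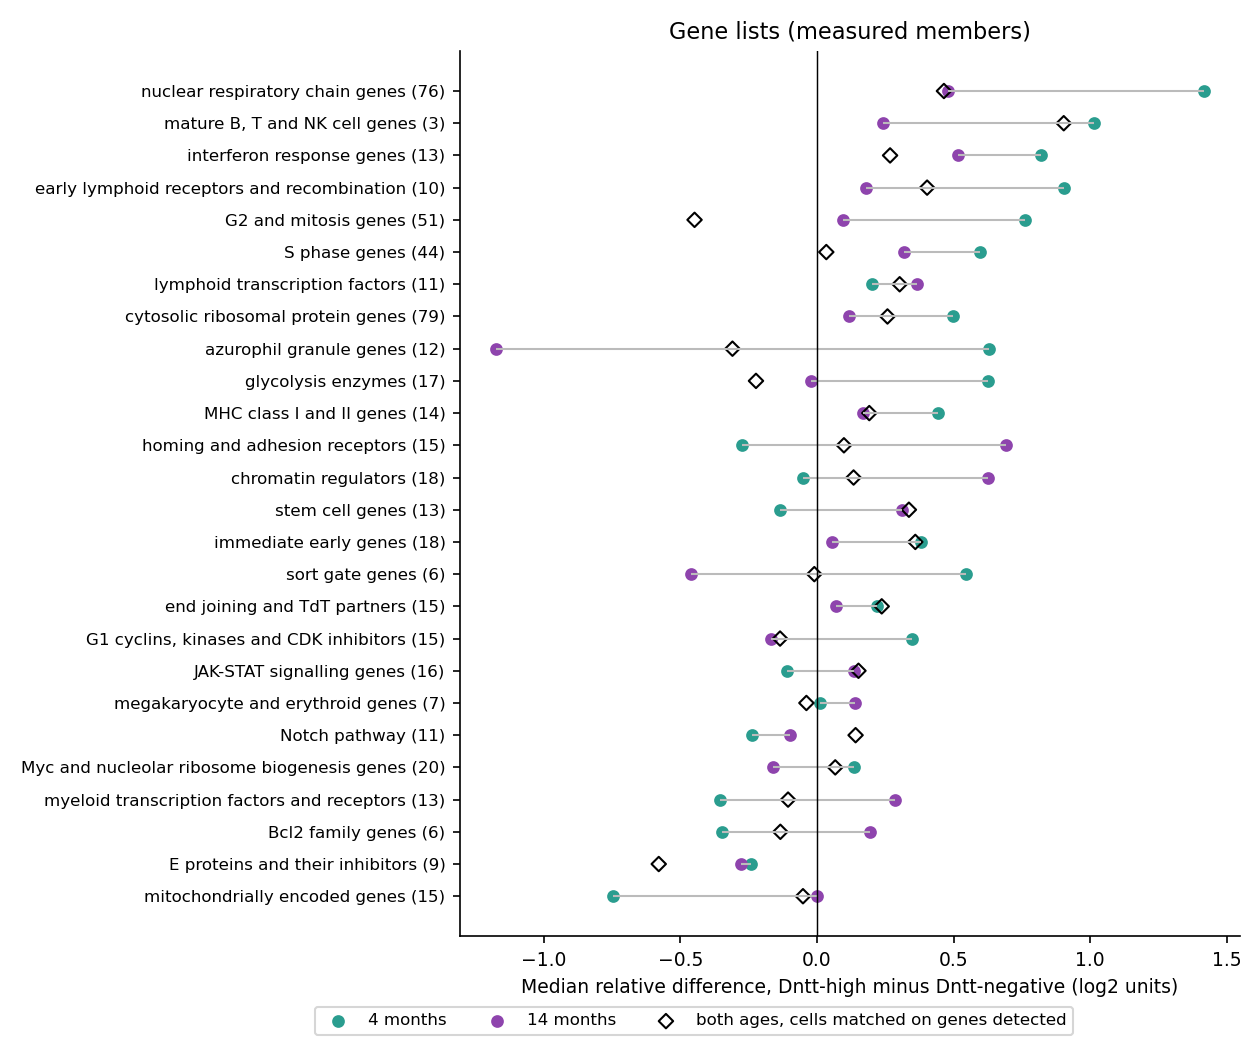
Median relative difference of the measured members of each gene list (number in brackets) at 4 months and 14 months, and over both ages in cells matched on genes detected (diamonds), in log2 units. The azurophil granule list and several others have their ages on opposite sides of 0, and the respiratory chain list lies furthest right at 4 months.

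In the immune presentation genes, 14 of 15 were measured, with a median of 0.22. Of these, 3 were higher (21.4%, beside 4.25% of all measured genes) and 1 was lower (7.14%, beside 1.09%). H2-D1, a classical class I heavy chain, had medians of 955 TPM against 421 TPM at 4 months and 655 TPM against 876 TPM at 14 months, so its higher mean at 14 months (relative difference 1.23) was not matched by its median. B2m, the class I light chain, averaged 1.24 and the peptide transporter gene Tap1 1.21. H2-Q7, a non-classical class I gene with near-identical neighbours, was lower, at -1.37 and -1.97. Of 13 measured interferon response genes, Ifi27 (2.60 and 1.76) and Ifitm3 (1.24 and 1.10, with -0.05 in set 5) were higher (15.4%, beside 4.25%), with a list median of 0.74. Immediate early genes held no higher or lower member among 18 measured, with a median of 0.14, and neither did 16 JAK-STAT genes, 20 Myc and ribosome biogenesis genes and 6 Bcl2 family genes.

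The genes lowest in Dntt-high cells were mostly broadly expressed. Genes lower at both ages were no more than the shares at each age would give, so their values are a description only. Esco1, an acetyltransferase of cohesin (chromosome 18, 10566507 to 10610352), was detected in 11 of 37 Dntt-high and 9 of 16 Dntt-negative cells at 4 months and in 13 of 48 and 5 of 9 at 14 months. Its relative differences were -2.16 and -2.76. Arhgap26, a GTPase-activating protein, was at -1.07 and -3.71. At 4 months Arhgap26 was in 10 of 37 and 5 of 16 cells, so that its lower value there came largely from the median shift, while at 14 months it was in 7 of 48 and 6 of 9. Sel1l, an adaptor of protein degradation at the endoplasmic reticulum, averaged -2.29 and the ubiquitin ligase gene Arih1 -2.37. Aqr, a spliceosomal helicase, averaged -2.02, Nabp2, which binds single-stranded DNA, -1.93, and Mtap of the methionine salvage pathway -1.77. Cd63, a tetraspanin of granule and lysosome membranes, averaged -1.73 but was at 1.35 in set 4 and -6.52 in set 5. Msantd3, Mapkap1, Zfp280d and Vopp1 averaged from -1.66 to -1.61. Of the 15 lowest genes, all but Cd63 in set 4 and Zfp280d in set 5 (0.09) were negative in both sets. Since these cells also named the genes, this adds no separate support.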

How the data were processed

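The authors deposited 1 table of TPM values, transcript abundance scaled within each cell, for 38924 genes in 168 columns, 1 per cell, and each column sums to 1000000. Per the submitters' processing notes it was made with Bowtie2 2.2.0, RSEM 1.2.12 and mm10. Read depth is unknown here, so intervals (exact Clopper-Pearson, 95%) cover counting of cells only, as do limits for a share of 0, taken as 3 cells.

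Each age is 1 sample: the labels number cells and name no animal, and no test was run. The table has 84 columns per age for 84 labelled cells of 4 months and 83 of 14 months, and the extra 14-month column cannot be singled out. Some 14-month Dntt-high columns had close values for several genes. Those at 350.69 and 353.52 TPM of Dntt, in set 4 and set 5, had Lsp1 at 911 and 884 TPM and Flt3 at 210 and 218 TPM. Those at 661.1 and 696.29 TPM had Lsp1 at 1287 and 1240 TPM. Whether any cell is repeated, within a set or across the sets, was not tested, and each column was counted as a separate cell. Age cannot be told apart from capture. A gene was detected at 1 TPM or more, and measured where the shares of cells in the 2 Dntt classes, averaged over the ages, had a mean of at least 10%. Differences of mean log2(TPM+1), pseudocount 1, were taken within each age relative to the median of the measured genes and averaged over the ages. This scale understates differences of low genes. Cells were not filtered on mitochondrial share and no doublet caller was run.

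Genes are named by rule: the 15 highest and 15 lowest of those past the limit at both ages with detection in at least 20% of cells of either class, predicted genes, pseudogenes and mitochondrial transcripts left out, a key panel, and the 2 highest and 2 lowest measured members of each of 27 lists. A few further list members were chosen after their values were seen. Some genes that these rules take are not reported here. The Dntt classes, lists and rules were chosen with earlier results of these data known. Symbols were found for 37607 gene identifiers and 1317 had none. The calculation was tested on simulated data. Coordinates are from the GENCODE annotation of mm10 and promoter windows from RefSeq. The tools were pandas 2.3.3, numpy 2.4.6, scipy 1.17.1 and matplotlib 3.10.9 under Python 3.11.15. The effect of 16 alternatives, and of 1 added after the data were seen, is given in the closing section.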

Additional observations from a re-analysis of the deposited data

Results flagged for a closer look

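Several genes named in the text had relative differences of opposite sign at the 2 ages, each at least 1 in size. Mpo was at 2.71 at 4 months and -1.74 at 14 months, and Cd34, the sialomucin the gate selects, at 1.11 and -1.75. For Mpo the 14-month value was 0.46 in set 4 and -4.99 in set 5, while Cd34 was at -1.23 and -1.99. Tpi1, a glycolysis enzyme gene, was at 1.56 and -2.53, and Ndufs1, a subunit of complex I, at 1.48 and -2.41. The cells of the classes overlapped in each case, and the difference between the ages was not tested. Of the 1416 genes higher at 4 months, 169 had this order of signs. That is near the share of all measured genes lower at 14 months (11.1%). Of the 885 lower at 4 months, 54 had the reverse, beside 12.3% of all measured genes higher at 14 months.

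Columns left out for too few detected genes still held Dntt. Of 38 such columns, 8 (21.1%, exact 95% interval 9.55 to 37.3%) had 100 TPM or more. Dntt chose the cells, so this describes only what the limit on detected genes left out. All 8 were among the 18 left-out columns of 14 months (44.4%, interval 21.5 to 69.2%), and none among the 20 of 4 months.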

How the results depend on the processing

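No paired analysis was possible because the numbers in the labels only count cells, each age is 1 sample and no result comes from a test. The 380 higher and 97 lower genes became 105 and 9 with a pseudocount of 10, 749 and 25 without the filter on low values, 910 and 345 with the ages pooled, and 728 and 19 with medians over cells. With genes in at least 30% of cells 213 were higher. The lower genes numbered 220 against Dntt-negative cells at exactly 0, 181 in cells matched on genes detected, 173 and 162 with only set 4 or set 5 at 14 months, 180 after quantile normalization and 52 without the highest cell of each class and age. Of the 380 and 97 genes, 153 and 47 were shared with the matched cells, and 253 and 45 with the comparison against Dntt-negative cells at exactly 0. The early lymphoid median of 0.66 was -0.0094 against Dntt-negative cells at exactly 0 and 1.41 with medians over cells. With set 5 alone the azurophil granule median of 0.26 was -1.11 and the stem cell median of 0.17 was -0.25, and the G2 and mitosis median of 0.48 was -0.45 in matched cells. Prtn3 turned to 0.54 with set 4 alone and Hlf to 0.13 against Dntt-negative cells at exactly 0. The cause of these shifts was not tested, except that filters change how many genes are compared. The 15 highest and 15 lowest genes kept their sign in every alternative in which they were measured, except Elane, Msantd3 and Vopp1, which were at 0 with medians over cells. The alternatives use the cells that named these genes, so this adds no separate support. Leaving out 2 Dntt-high cells of 14 months with over 20% of TPM in 1 nuclear gene gave 403 higher and 95 lower genes.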
